A study of Mus musculus with 7 samples.

Results

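The Notch genes described here are 10 genes of the pathway, out of 38579 gene entries measured: the receptors Notch1, Notch2, Notch3 and Notch4, the ligands Jag1, Jag2 and Dll1, and the target genes Hes1, Hey1 and Heyl. They were chosen by name and all 10 were found. RNA was sequenced from 7 libraries of primary mammary cells of CD1 mouse embryos at E17.5, a day late in gestation, freshly sorted by flow cytometry in a pair of strategies that the study set side by side. Sorting for cells bearing the Sox10-Venus reporter, a fluorescent marker of Sox10 expression, and the epithelial surface protein EpCAM gave 2 libraries of fetal mammary stem cells (fMaSC), here Sox10+EpCAM+ fMaSC, and the EpCAM-negative, Sox10-negative cells gave 1 library of EpCAM-negative stroma. Sorting lineage-negative cells on the surface proteins CD24 and CD49f gave 2 libraries of CD24+CD49f+ fMaSC and 2 libraries of CD24low stroma. The fMaSC fractions are populations enriched for stem cells and not pure ones, and no group carries a treatment. The column names give every library as lineage-negative. The sorting-marker labels give this for the CD24 and CD49f sort only, not for the libraries of the Sox10 sort. The title of replicate 1 of Sox10+EpCAM+ fMaSC also leaves it out. The labels call the libraries biological replicates without saying which litters or animals they came from, so p-values measure the spread between these libraries only, and the EpCAM-negative library has no replicate and no SD.

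Notch receptors are membrane proteins that bind Delta-like or Jagged ligands on neighbouring cells. Binding leads to cleavage of the receptor, last by the gamma-secretase complex, and the freed intracellular domain joins RBPJ and Mastermind-like proteins in the nucleus to activate genes that include the Hes and Hey families of transcriptional repressors. In the mouse mammary gland the pathway is known for its part in luminal cell fate, and in blood vessels Notch3 is known as a receptor of pericytes and smooth muscle.

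The sorted fractions were first set against marker genes, whose levels are given as FPKM (fragments scaled by transcript length and by the library's mapped fragments) summed over a list. A list of 7 epithelial markers summed to 735 and 869 FPKM in Sox10+EpCAM+ fMaSC and 528 and 338 FPKM in CD24+CD49f+ fMaSC, against 6.96 FPKM in EpCAM-negative stroma and 3.33 and 2.62 FPKM in CD24low stroma. A list of 7 fibroblast markers summed to 46.4 and 75.7 FPKM in Sox10+EpCAM+ fMaSC and 2213 and 3429 FPKM in CD24+CD49f+ fMaSC, against 6394 FPKM in EpCAM-negative stroma and 7552 and 7179 FPKM in CD24low stroma. The labels thus matched the leading markers, while the CD24+CD49f+ fMaSC libraries also held fibroblast transcripts at 30.0% and 46.6% of the CD24low stroma mean, and erythroid markers at 5550 and 575 FPKM. None of the epithelial or fibroblast markers was at 0 in any library. Depth was estimated at 25.0 M to 37.7 M fragments per library, and the log2 values of replicates correlated across genes, which are not independent, at a Pearson's r of 0.936 (CD24+CD49f+ fMaSC), 0.969 (CD24low stroma) and 0.987 (Sox10+EpCAM+ fMaSC). In bulk samples such as these, fewer cells of a type and less RNA per cell cannot be told apart.

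Promoter sequence is shown for 3 of the genes that differed between fMaSC and stroma, Dll1 as the member with the largest higher fold on the log2(FPKM + 1) scale and Notch2 and Notch3 as the receptors that were lower in Sox10+EpCAM+ fMaSC. Each is the stretch of 200 bases that ends 51 bases before the gene's start, from RefSeq on GRCm38.p6, 5′ to 3′ on the gene's own strand. Capitals mark, on either strand, GGGCGG (a GC box, known as a site for Sp1-family factors), ACAAAG or ACAATG (words of the SOX type).
Dll1 promoter, chr17:15376983-15377182, minus strand: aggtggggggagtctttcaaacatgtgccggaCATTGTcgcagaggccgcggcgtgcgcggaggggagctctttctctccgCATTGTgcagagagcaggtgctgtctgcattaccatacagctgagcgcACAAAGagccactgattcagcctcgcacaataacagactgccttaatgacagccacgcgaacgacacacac
Notch2 promoter, chr3:98013288-98013487, plus strand: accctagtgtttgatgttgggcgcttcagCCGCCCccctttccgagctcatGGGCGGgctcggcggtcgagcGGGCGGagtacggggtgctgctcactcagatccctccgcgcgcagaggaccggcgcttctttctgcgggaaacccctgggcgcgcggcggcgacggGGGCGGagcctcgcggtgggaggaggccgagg
Notch3 promoter, chr17:32166941-32167140, minus strand: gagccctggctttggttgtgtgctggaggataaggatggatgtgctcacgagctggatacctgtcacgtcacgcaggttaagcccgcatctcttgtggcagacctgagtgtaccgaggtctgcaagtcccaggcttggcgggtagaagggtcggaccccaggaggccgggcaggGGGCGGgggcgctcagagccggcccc
The Dll1 stretch held 1 ACAAAG, 2 ACAATG and 0 GGGCGG, the Notch2 stretch held 4 GGGCGG and the Notch3 stretch held 1 GGGCGG. Stretches not printed did not follow the direction of the genes. Jag2, higher in fMaSC, held 3 GGGCGG and no SOX-type word, and Notch1 held 2 GGGCGG and no SOX-type word. Jag1, which was not called, held 1 ACAATG, and Notch4 held none of these words. Over 32851 promoter stretches of the same length, 24.6% held GGGCGG, 13.6% held ACAAAG and 8.94% held ACAATG. The word GTGGGAA, of the type bound by RBPJ, was in 4.35% of them and in none of the 7 members with an entry in the table (the 4 receptors and 3 ligands). The Notch1 stretch was taken at a start 12841 bases from that of the measured locus and lies inside that locus. These matches describe letters only.

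The Notch genes fell into an fMaSC side, a stroma side and a shared group. Among the 9 members that passed the expression filter (1 FPKM or more in at least 2 libraries), the 4 fMaSC libraries all lay above the 3 stroma libraries for 4 genes, Notch1, Jag2, Dll1 and Hey1. The same held for 23.3% of the 14418 genes tested. All 4 lay below the stroma libraries for 2 genes, Notch3 and Heyl, against 13.7% of all genes tested. Notch2, Jag1 and Hes1 overlapped between cell types, and Notch4 did not reach 1 FPKM in any library and was not tested. Dll1 and Jag2 met the filter only through their fMaSC libraries, so a difference was built into their passing it, and counts that include them are a description.

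**Figure D1:**
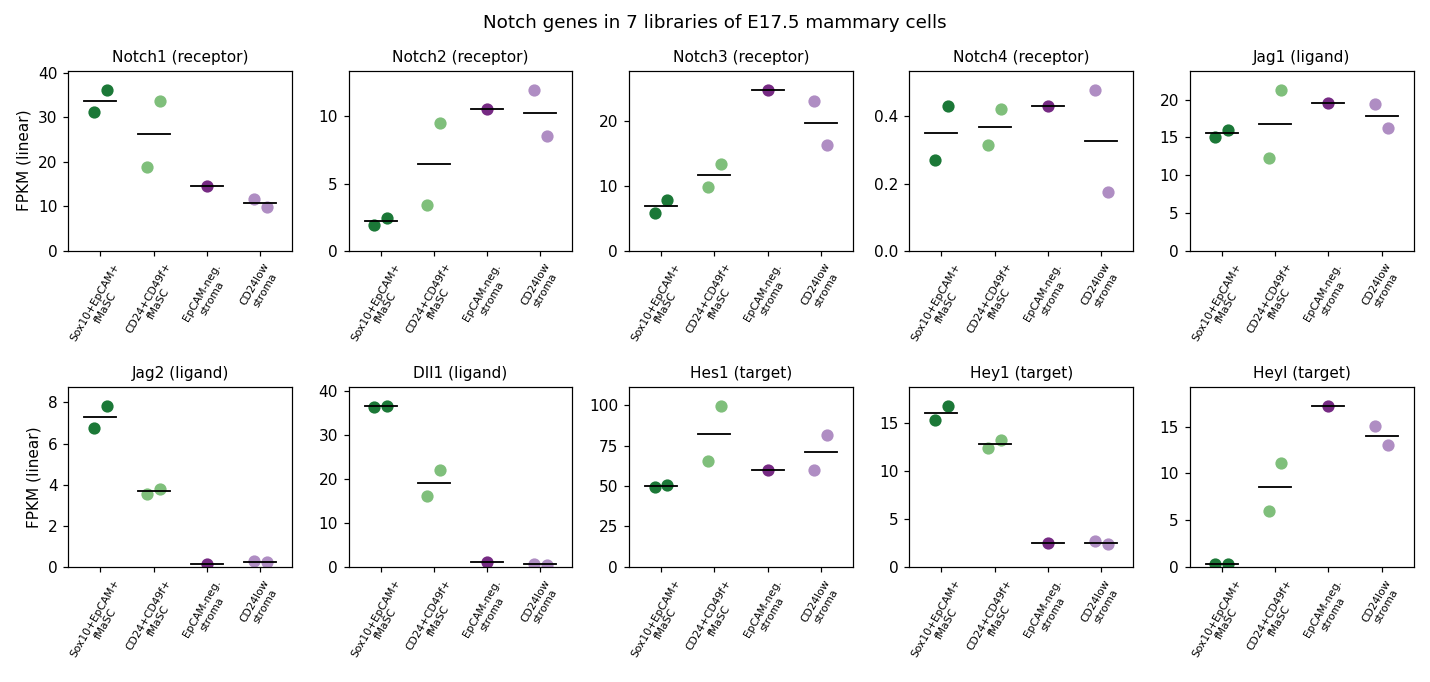
Level of each of the 10 Notch genes as FPKM on a linear axis starting at 0, with 1 point per library, a bar at the group mean and fMaSC groups left of stroma groups. Dll1, Jag2 and Hey1 lie higher in all fMaSC libraries, Heyl is below 0.3 FPKM only in the 2 Sox10+EpCAM+ fMaSC libraries, and Notch4 stays below 0.5 FPKM throughout.

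Comparisons between groups were read from a limma fit of log2(FPKM + 1) with Benjamini-Hochberg adjustment over all 14418 genes and a threshold of 0.05. On this scale the fold of a weakly expressed gene is compressed. Counts of members called higher in fMaSC than in stroma include Dll1 and Jag2, which met the filter only through fMaSC libraries, and are a description. Between Sox10+EpCAM+ fMaSC and EpCAM-negative stroma, 6 of the 9 tested members were called, beside 26.1% of all genes. Of these, 3 were higher (12.5% of all genes) and 3 were lower (13.6% of all genes). Between CD24+CD49f+ fMaSC and CD24low stroma, 3 members were called (10.7% of all genes), of which 3 were higher (7.78% of all genes) and 0 were lower (2.94% of all genes), while 6 of the 9 had an unadjusted limma p under 0.05 in either direction. In a pooled fit of cell type with the sort as a second term, 5 members were called (25.1% of all genes), of which 4 were higher (15.6% of all genes) and 1 was lower (9.50% of all genes). The median log2 fold of the 9 members was -0.26 in the Sox10 sort, 0.20 in the CD24 sort and 0.017 in the pooled fit, beside 0.09, 0.13 and 0.12 over all genes tested, so the list as a whole had no common direction.

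**Figure D2:**
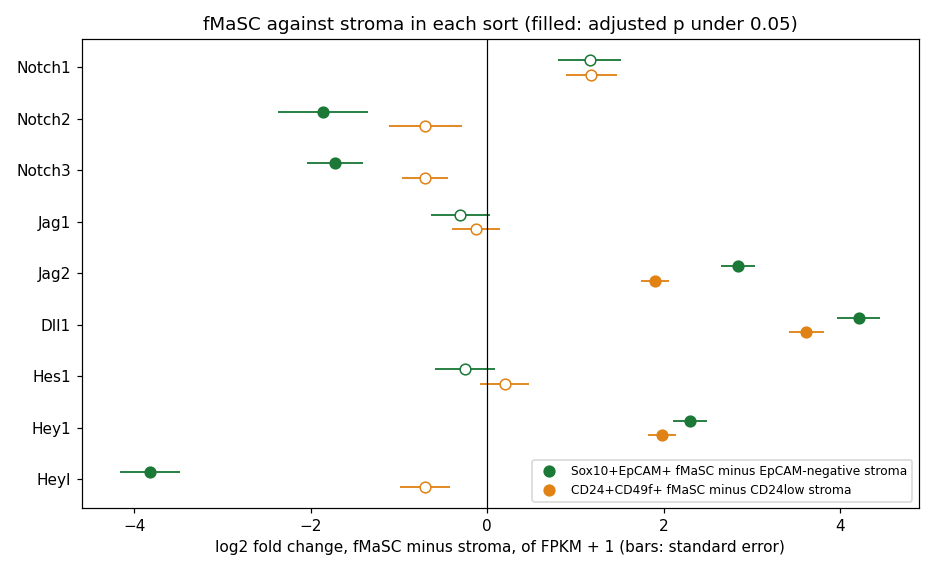
Log2 fold change (FPKM + 1) of 9 Notch genes for Sox10+EpCAM+ fMaSC minus EpCAM-negative stroma and CD24+CD49f+ fMaSC minus CD24low stroma, with bars for the standard error and filled points for limma adjusted p under 0.05. Dll1, Jag2 and Hey1 are filled to the right in both sorts, while Notch2, Notch3 and Heyl are filled to the left in the Sox10 sort only, of which only Heyl passed the test of the difference between sorts.

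Of the receptors, Notch1 was the one with higher levels in fMaSC. Notch1 (ENSMUSG00000026923, GRCm38 chr2:26457903-26516663, minus strand) stood at 31.2 and 36.2 FPKM in the Sox10+EpCAM+ fMaSC and 18.9 and 33.7 FPKM in CD24+CD49f+ fMaSC, against 14.5 FPKM in EpCAM-negative stroma and 11.6 and 9.73 FPKM in CD24low stroma. All fMaSC libraries exceeded all stroma libraries, but the CD24+CD49f+ fMaSC replicates lay far apart, with a mean of 26.3 ± 10.4 FPKM (SD, n = 2). The mean was 33.7 ± 3.55 FPKM in Sox10+EpCAM+ fMaSC and 10.6 ± 1.29 FPKM in CD24low stroma (SD, n = 2 each). Notch1 passed the limma test only in the pooled fit, with a log2 fold of 1.17 ± 0.21 (SE, adjusted p = 0.0105). With each library rescaled to an equal FPKM total (TPM), the adjusted p became 0.289 at a fold of 0.71. Without the EpCAM-negative library the pooled fit reduces to the CD24 sort comparison (limma adjusted p = 0.0557), so it is no separate check. Within each sort the folds were alike in size and missed the threshold, at 1.16 ± 0.36 (SE, adjusted p = 0.0593) in the Sox10 sort and 1.18 ± 0.29 (SE, adjusted p = 0.0563) in the CD24 sort by limma. Leaving out CD24+CD49f+ fMaSC replicate 1 brought the CD24 sort to a fold of 1.58 (limma adjusted p = 0.0087), and leaving out replicate 2 brought it to 0.78 (limma adjusted p = 0.0538). Leaving out either CD24+CD49f+ fMaSC library brought the Sox10 sort under the threshold (limma adjusted p = 0.00798 and 0.00782), since the fit shares its estimate of spread.

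Notch2 and Notch3, which encode the other well-expressed receptors, had negative fMaSC-against-stroma folds in both sorts, although Notch2 overlapped between cell types. Notch3 (ENSMUSG00000038146, chr17:32120820-32166880, minus strand) stood at 5.79 and 7.83 FPKM in the Sox10+EpCAM+ fMaSC and 9.78 and 13.4 FPKM in CD24+CD49f+ fMaSC, against 24.7 FPKM in EpCAM-negative stroma and 23.0 and 16.2 FPKM in CD24low stroma. The libraries of the 2 cell types did not overlap, and EpCAM-negative stroma did not pass the test against CD24low stroma. In the Sox10 sort Notch3 fell by 1.73 on the log2 scale (SE 0.32, limma adjusted p = 0.0108), a mean 3.63-fold lower. Without Sox10+EpCAM+ fMaSC replicate 1 the adjusted p was 0.0732. The pooled call (-1.12, SE 0.27, limma adjusted p = 0.027) was lost with no expression filter and with TPM rescaling. It was also lost without any of 5 libraries (all but CD24+CD49f+ fMaSC replicate 2 and CD24low stroma replicate 2). Of these, the fit without the EpCAM-negative library reduces to the CD24 sort comparison, at -0.71 (limma adjusted p = 0.153). In the CD24 sort the log2 difference was -0.71 (SE 0.26, limma adjusted p = 0.155), and the difference between the sorts was -1.02 (SE 0.41, limma adjusted p = 0.331), so a larger effect in the Sox10 sort was not shown.

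Notch2 (ENSMUSG00000027878, chr3:98013538-98150367, plus strand) was at 1.92 and 2.46 FPKM in the Sox10+EpCAM+ fMaSC and 3.42 and 9.55 FPKM in CD24+CD49f+ fMaSC, against 10.6 FPKM in EpCAM-negative stroma and 12.0 and 8.53 FPKM in CD24low stroma. The Sox10+EpCAM+ fMaSC libraries were the lowest of the 7, and CD24+CD49f+ fMaSC replicate 2 lay within the range of the stroma. Notch2 was lower in the Sox10 sort by -1.87 on the log2 scale (SE 0.51, limma adjusted p = 0.0431), a mean 4.83-fold lower. That call was lost without either Sox10+EpCAM+ fMaSC library (adjusted p = 0.172 and 0.115), without either CD24low stroma library (0.076 and 0.0755), with no expression filter (0.12) and with TPM rescaling (0.0596). In the CD24 sort the difference was -0.70 (SE 0.42, limma adjusted p = 0.364) and turned on the CD24+CD49f+ fMaSC library used. It became -1.33 (limma adjusted p = 0.0222) without replicate 2 of that group and -0.076 (limma adjusted p = 0.881) without replicate 1.

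Notch4 (ENSMUSG00000015468, chr17:34564268-34588503, plus strand), known in the mouse as an endothelial receptor, lay between 0.175 and 0.479 FPKM over the 7 libraries, with every group's libraries inside that range. The endothelial markers summed to 4.39 and 4.73 FPKM in Sox10+EpCAM+ fMaSC and 24.2 and 27.3 FPKM in CD24+CD49f+ fMaSC, against 12.3 FPKM in EpCAM-negative stroma and 26.3 and 23.2 FPKM in CD24low stroma. Single markers did not run alike. Tek was at 1.99 and 3.11 FPKM in CD24+CD49f+ fMaSC, against 10.5 and 12.6 FPKM in CD24low stroma. Cldn5 was at 9.96 and 7.83 FPKM in CD24+CD49f+ fMaSC, against 3.29 and 2.51 FPKM in CD24low stroma. In the CD24 sort 1 of the 7 tested markers was called higher (7.78% of all genes) and 1 lower (2.94% of all genes).

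Given as shares of the summed receptor FPKM, a measure per length, the receptor make-up differed between fMaSC and stroma libraries, while the 2 stroma groups lay close together. Notch1 made up 79.6% and 77.1% of receptor FPKM in Sox10+EpCAM+ fMaSC and 58.3% and 59.1% in CD24+CD49f+ fMaSC, against 28.8% in EpCAM-negative stroma and 24.6% and 28.1% in CD24low stroma. Notch3 was the leading receptor of stroma and made up 14.8% and 16.7% in Sox10+EpCAM+ fMaSC and 30.1% and 23.4% in CD24+CD49f+ fMaSC, against 49.2% in EpCAM-negative stroma and 48.9% and 46.8% in CD24low stroma. The receptor sum itself overlapped between cell types, at 39.1 and 46.9 FPKM in the Sox10+EpCAM+ fMaSC and 32.4 and 57.0 FPKM in CD24+CD49f+ fMaSC, against 50.2 FPKM in EpCAM-negative stroma and 47.0 and 34.7 FPKM in CD24low stroma. The share of Notch2 was less even between the CD24+CD49f+ fMaSC replicates, at 10.6% and 16.7%. These shares are a description with no test, and because they sum to 100 the rise of one gene's share lowers the others.

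**Figure D3:**
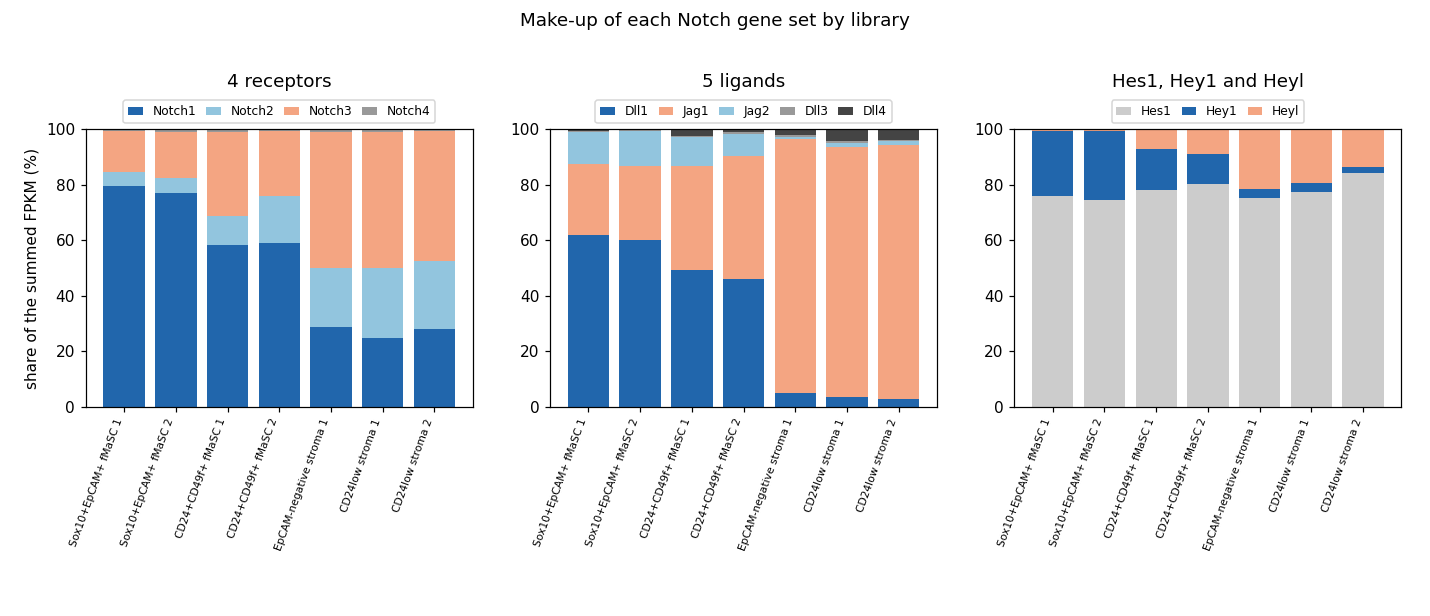
Share of each gene in the summed FPKM of the receptors, the ligands (with Dll3 and Dll4) and the targets Hes1, Hey1 and Heyl, in percent, with 1 stacked bar per library and fMaSC libraries on the left. Notch1 and Dll1 lead in the Sox10+EpCAM+ fMaSC libraries, Notch3 and Jag1 lead in the stroma libraries, and Hes1 takes between 74.7% and 84.1% of the target sum in every library.

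Of the ligands, Dll1 and Jag2 were higher in fMaSC and Jag1 was not called. Dll1 (ENSMUSG00000014773, chr17:15367354-15376872, minus strand), a Delta-like ligand whose promoter stretch is printed above, was at 36.4 and 36.5 FPKM in the Sox10+EpCAM+ fMaSC and 16.1 and 22.0 FPKM in CD24+CD49f+ fMaSC, against 1.02 FPKM in EpCAM-negative stroma and 0.744 and 0.500 FPKM in CD24low stroma. Every fMaSC library was far above every stroma library. The means were 35.6-fold higher in Sox10+EpCAM+ fMaSC than in EpCAM-negative stroma, and 30.6-fold higher when CD24+CD49f+ fMaSC were set against CD24low stroma. On the log2(FPKM + 1) scale the folds were 4.21 ± 0.25 (SE, limma adjusted p = 0.000323) in the Sox10 sort and 3.62 ± 0.20 (SE, limma adjusted p = 0.00047) in the CD24 sort. Dll1 would not have met the expression filter without its fMaSC libraries, so these p-values are a description. The level put Dll1 above 87.2% of the tested genes in Sox10+EpCAM+ fMaSC and 76.7% in CD24+CD49f+ fMaSC, against 10.5% in EpCAM-negative stroma and 6.09% in CD24low stroma.

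Jag2 (ENSMUSG00000002799, chr12:112908590-112929495, minus strand), a Jagged ligand, stood at 6.77 and 7.81 FPKM in the Sox10+EpCAM+ fMaSC and 3.52 and 3.81 FPKM in CD24+CD49f+ fMaSC, against 0.157 FPKM in EpCAM-negative stroma and 0.290 and 0.216 FPKM in CD24low stroma. Its 4 fMaSC libraries all exceeded the stroma libraries, which lay below 1 FPKM. The log2 fold was 2.84 ± 0.19 (SE, limma adjusted p = 0.000434) in the Sox10 sort and 1.90 ± 0.16 (SE, limma adjusted p = 0.00161) in the CD24 sort. As ratios of mean FPKM these were 46.5-fold and 14.5-fold higher. Jag2 met the expression filter only through its fMaSC libraries, so its p-values are a description.

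Jag1 (ENSMUSG00000027276, chr2:137081456-137116644, minus strand), the other Jagged ligand, did not separate the cell types. It stood at 15.1 and 16.0 FPKM in the Sox10+EpCAM+ fMaSC and 12.2 and 21.3 FPKM in CD24+CD49f+ fMaSC, against 19.5 FPKM in EpCAM-negative stroma and 19.5 and 16.3 FPKM in CD24low stroma. The highest and the lowest of the 7 libraries were both CD24+CD49f+ fMaSC. The log2 difference was -0.31 (SE 0.33, limma adjusted p = 0.516) in the Sox10 sort and -0.13 (SE 0.27, limma adjusted p = 0.802) in the CD24 sort, which does not show that the levels were equal. Jag1 nonetheless led the ligand sum in stroma. Its share was 25.7% and 26.5% in Sox10+EpCAM+ fMaSC and 37.4% and 44.5% in CD24+CD49f+ fMaSC, against 91.7% in EpCAM-negative stroma and 90.1% and 91.7% in CD24low stroma. Dll1 was the first ligand in fMaSC, with 61.9% and 60.2% in Sox10+EpCAM+ fMaSC and 49.2% and 46.0% in CD24+CD49f+ fMaSC, against 4.81% in EpCAM-negative stroma and 3.45% and 2.82% in CD24low stroma.

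The target genes split 3 ways. Hey1 (ENSMUSG00000040289, chr3:8663362-8667039, minus strand), a Hey-family repressor, was at 15.3 and 16.8 FPKM in the Sox10+EpCAM+ fMaSC and 12.4 and 13.3 FPKM in CD24+CD49f+ fMaSC, against 2.47 FPKM in EpCAM-negative stroma and 2.66 and 2.36 FPKM in CD24low stroma. No fMaSC library came near the stroma libraries, and replicates lay close together. The log2 fold was 2.30 ± 0.19 (SE, limma adjusted p = 0.000772) in the Sox10 sort and 1.98 ± 0.16 (SE, limma adjusted p = 0.00142) in the CD24 sort, with means 6.51-fold and 5.12-fold higher. Both within-sort calls were lost with TPM rescaling (limma adjusted p = 0.0802 and 0.0694), and the pooled call was kept.

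Heyl (ENSMUSG00000032744, chr4:123233556-123249875, plus strand), a relative of Hey1 known from vascular smooth muscle in the mouse, ran the other way. It stood at 0.288 and 0.279 FPKM in the Sox10+EpCAM+ fMaSC and 5.99 and 11.1 FPKM in CD24+CD49f+ fMaSC, against 17.2 FPKM in EpCAM-negative stroma and 15.1 and 13.0 FPKM in CD24low stroma. The Sox10+EpCAM+ fMaSC libraries were near 0, while the CD24+CD49f+ fMaSC libraries lay between them and the stroma. In the Sox10 sort Heyl fell by 3.82 on the log2 scale (SE 0.34, limma adjusted p = 0.000958), with a mean 60.6-fold lower. In the CD24 sort the difference was -0.71 (SE 0.28, limma adjusted p = 0.181), which became -1.10 (adjusted p = 0.0159) without CD24+CD49f+ fMaSC replicate 2 and -0.31 (adjusted p = 0.328) without replicate 1.

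Hes1 (ENSMUSG00000022528, chr16:30064384-30067796, plus strand), a Hes-family repressor, was the most abundant member per length in every library. It stood at 49.2 and 50.4 FPKM in the Sox10+EpCAM+ fMaSC and 65.5 and 99.3 FPKM in CD24+CD49f+ fMaSC, against 59.7 FPKM in EpCAM-negative stroma and 60.1 and 81.7 FPKM in CD24low stroma. The CD24+CD49f+ fMaSC and stroma libraries overlapped, and the Sox10+EpCAM+ fMaSC libraries were the lowest. The log2 difference was -0.26 (SE 0.34, limma adjusted p = 0.599) in the Sox10 sort and 0.20 (SE 0.28, limma adjusted p = 0.697) in the CD24 sort, and the sign turned under TPM rescaling in the CD24 sort and under TPM, TMM and quantile scaling in the pooled fit.

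The 2 fMaSC fractions were compared directly, as were the 2 stroma fractions. Between Sox10+EpCAM+ fMaSC and CD24+CD49f+ fMaSC, 3 members were called (9.99% of all genes), of which 2 were higher (1.95% of all genes) and 1 was lower (8.04% of all genes). Heyl was lower by -2.84 on the log2 scale (SE 0.28, limma adjusted p = 0.00334), a mean 30.2-fold lower in Sox10+EpCAM+ fMaSC. Jag2 was higher by 0.83 (SE 0.16, limma adjusted p = 0.0295) and Dll1 by 0.92 (SE 0.20, limma adjusted p = 0.0435), with means 1.99-fold and 1.91-fold higher in Sox10+EpCAM+ fMaSC. Neither of these last calls was kept with a pseudocount of 0.1, with no filter or with TPM rescaling. The same held without either Sox10+EpCAM+ fMaSC library or either CD24low stroma library. Leaving out CD24low stroma did not change these folds, since it enters here only through the shared estimate of spread. Dll1 was lost too without CD24+CD49f+ fMaSC replicate 1 (0.0533) and with quantile scaling (0.0511), and Jag2 with a filter of 5 FPKM (0.0916). Notch2 (-1.10), Notch3 (-0.68) and Hes1 (-0.69) also had lower log2 values in Sox10+EpCAM+ fMaSC, with limma adjusted p of 0.177, 0.178 and 0.208. For Notch2 this became -1.73 (limma adjusted p = 0.00926) without CD24+CD49f+ fMaSC replicate 1 and -0.48 (limma adjusted p = 0.337) without replicate 2.

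Between EpCAM-negative and CD24low stroma no member was called, beside 0.0277% of all genes. Log2 differences ran from -0.23 for Hes1 to 0.41 for Notch1, with a limma adjusted p of 1 for all 9 and 0 members with an unadjusted p under 0.05. With 1 EpCAM-negative library the SE was 0.19 to 0.51, so differences of such size could not be seen. The difference between the 2 fMaSC-against-stroma folds was called for 1 member, Heyl (1.51% of all genes were called, and 1.44% in the same direction), at -3.12 (SE 0.44, limma adjusted p = 0.0358). That call was lost without either Sox10+EpCAM+ fMaSC library (adjusted p = 0.207 and 0.161) and without either CD24low stroma library (0.128 and 0.168), with no filter (0.101), with TPM rescaling (0.122) and with quantile scaling (0.0519). For Jag2 the difference was 0.94 (SE 0.25, limma adjusted p = 0.165), and for Notch2 it was -1.16 (SE 0.66, limma adjusted p = 0.507), which became -1.79 (adjusted p = 0.0433) without CD24+CD49f+ fMaSC replicate 1.

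Heyl, Notch2 and Notch3 were set beside markers of fibroblasts and pericytes as a percent of the CD24low stroma mean. Heyl was at 2.05% and 1.99% in Sox10+EpCAM+ fMaSC and 42.6% and 79.2% in CD24+CD49f+ fMaSC, against 122% in EpCAM-negative stroma. The fibroblast sum was at 0.630% and 1.03% in Sox10+EpCAM+ fMaSC and 30.0% and 46.6% in CD24+CD49f+ fMaSC, against 86.8% in EpCAM-negative stroma. The sum of 5 pericyte markers, a list without Notch3, was at 1.13% and 1.88% in Sox10+EpCAM+ fMaSC and 31.5% and 22.7% in CD24+CD49f+ fMaSC, against 119% in EpCAM-negative stroma. Both sums were lowest in the Sox10+EpCAM+ fMaSC libraries, where Heyl was lowest too. Between the CD24+CD49f+ fMaSC replicates, the fibroblast sum was higher and the pericyte sum lower where Heyl was higher. Notch2 was at 18.7% and 24.0% in Sox10+EpCAM+ fMaSC and 33.4% and 93.1% in CD24+CD49f+ fMaSC, against 103% in EpCAM-negative stroma. Notch3 was at 29.5% and 39.9% in Sox10+EpCAM+ fMaSC and 49.9% and 68.1% in CD24+CD49f+ fMaSC, against 126% in EpCAM-negative stroma. In every fMaSC library Heyl, Notch2 and Notch3 each stood at a higher percent of the CD24low stroma mean than either marker sum did. The part of fibroblast, pericyte or erythroid transcripts in the fMaSC values of these genes was not tested.

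**Figure D4:**
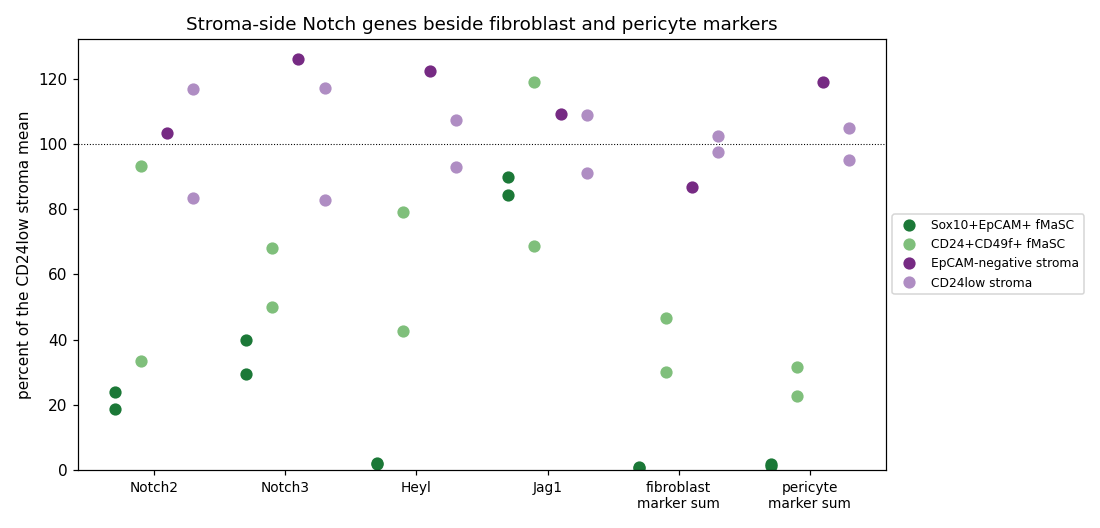
Level of Notch2, Notch3, Heyl and Jag1 and of the summed fibroblast and pericyte markers, as a percent of the CD24low stroma mean, with 1 point per library and fMaSC groups left of stroma groups. In Sox10+EpCAM+ fMaSC both marker sums and Heyl are at 2.05% or less, Notch2 and Notch3 lie between 18.7% and 39.9%, and Jag1 is at 84.4% and 89.7%.

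The 4 Schwann cell markers, listed because glial cells also express Sox10 (itself on the list), summed to 139.8 and 153 FPKM in Sox10+EpCAM+ fMaSC and 108 and 115 FPKM in CD24+CD49f+ fMaSC, against 1.56 FPKM in EpCAM-negative stroma and 4.68 and 3.18 FPKM in CD24low stroma. These levels were higher in the libraries where Notch1, Jag2, Dll1 and Hey1 were higher, and their part in those differences was not tested.

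Genes that ran most like a member were sought for the 5 members whose level spanned over 2 on the log2 scale, among 10496 genes over the 7 libraries, by the root mean square difference of centred log2(FPKM + 1). Nearest to Dll1 was Gata3, a luminal transcription factor, at a difference of 0.0927. Next were Cdh3, a basal marker that encodes P-cadherin, at 0.163 and the desmosome gene Dsp at 0.19. Nearest to Jag2 was Fzd9, which encodes a Frizzled receptor, at 0.0740, followed by Vwa2 at 0.0877 and the myosin gene Myh14 at 0.0883. Nearest to Hey1 was the adhesion gene Alcam at 0.0674, followed by Arhgef26 at 0.132 and Ctnnal1 at 0.142. Nearest to Heyl was the homeobox gene Hoxc6 at 0.0402, followed by the complement gene C1ra at 0.154 and the T-box gene Tbx18 at 0.161. Nearest to Notch2 was Il6st, the shared receptor subunit of interleukin-6 family cytokines, at 0.0892, followed by Cd3e and Cep170 at 0.117 each. The measure is a description, since the libraries share their sort and cell type.

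The rest of the pathway was read from 7 lists with 59 genes, of which 48 were tested. In the Sox10 sort 7 were higher and 8 lower, close in share to the 12.5% and 13.6% of all genes. In the CD24 sort 1 was higher and 0 lower, beside 7.78% and 2.94% of all genes. In the pooled fit 10 were higher and 4 lower (15.6% and 9.50% of all genes), between the fMaSC fractions 1 was higher and 4 lower (1.95% and 8.04%), and between the stroma fractions and in the difference between sorts 0 were called. The median log2 fold of these genes was 0.05 in the Sox10 sort and 0.21 in the CD24 sort, near the 0.09 and 0.13 of all genes. Of the 21 calls in the Sox10 sort, the CD24 sort and between the fMaSC fractions, which are named below, 1 was tested and held in every alternative, Numbl in the Sox10 sort. Dlk2 in the Sox10 sort held in those where it was tested, but it reached 1 FPKM only in the 2 Sox10+EpCAM+ fMaSC libraries, so it was not tested without either of them or with a filter of 5 FPKM. Leaving out Sox10+EpCAM+ fMaSC replicate 1 or replicate 2 ended 16 of the 21 each, TPM rescaling 14 and no filter 10, and no named call turned its direction.

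Non-canonical ligands gave a pair of opposite calls. Dlk1, a Delta-like protein that does not carry the usual receptor-binding domain, was at 97.8 and 114 FPKM in the Sox10+EpCAM+ fMaSC and 1121 and 2165 FPKM in CD24+CD49f+ fMaSC, against 2366 FPKM in EpCAM-negative stroma and 2994 and 3129 FPKM in CD24low stroma. It was lower in the Sox10 sort by -4.48 on the log2 scale (SE 0.59, limma adjusted p = 0.00344) and lower in Sox10+EpCAM+ than in CD24+CD49f+ fMaSC by -3.87 (SE 0.48, limma adjusted p = 0.00734). Dlk2, its relative, was at 1.90 and 2.08 FPKM in Sox10+EpCAM+ fMaSC, against 0.122 FPKM in EpCAM-negative stroma, and met the expression filter through those 2 fMaSC libraries alone. Its log2 fold was 1.41 (SE 0.20, limma adjusted p = 0.00413).

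Processing, glycosylation and ligand endocytosis genes each had few calls in the Sox10 sort. Of 9 processing genes, Adam10, the protease that makes the first cut of the bound receptor, was higher by 0.82 (limma adjusted p = 0.0439), which became 0.053 (limma adjusted p = 0.959) under TPM rescaling. The Adam10 call was also lost with TMM, quantile scaling, no filter and without either Sox10+EpCAM+ fMaSC or either CD24low stroma library. Leaving out CD24low stroma left its fold at 0.82 and changed the estimate of spread. Psen2, a catalytic subunit of gamma-secretase, was lower by -1.12 (limma adjusted p = 0.00942). Of 5 glycosylation genes, Poglut1, which adds O-glucose to Notch repeats, was higher by 0.91 (limma adjusted p = 0.0158; 0.18 with an adjusted p of 0.835 under TPM rescaling), and Pofut1, which adds O-fucose, was lower by -1.07 (limma adjusted p = 0.0458). Of 4 endocytosis genes, Neurl1a at -1.37 and Neurl3 at -1.19 were lower, with limma adjusted p of 0.00907 and 0.0139, and both belong to the Neuralized family of ubiquitin ligases.

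Among 15 genes of the nuclear complex and its corepressors, 3 were higher and 0 lower in the Sox10 sort. These were the coactivator Maml2 at 1.23, and the Groucho-family corepressors Tle4 at 1.21 and Tle1 at 1.01, with limma adjusted p of 0.0391, 0.0145 and 0.0162, beside 12.5% of all genes called higher. All 3 calls were lost without either Sox10+EpCAM+ fMaSC library and under TPM rescaling, which moved the folds to 0.57, 0.63 and 0.28 and the median of all genes to -0.63. Rbpj, the DNA-binding partner of the receptors, was at 7.14 and 9.14 FPKM in the Sox10+EpCAM+ fMaSC and 6.30 and 9.89 FPKM in CD24+CD49f+ fMaSC, against 8.44 FPKM in EpCAM-negative stroma and 10.5 and 8.48 FPKM in CD24low stroma. Its groups overlapped, and the log2 difference was -0.055 (SE 0.31, limma adjusted p = 0.908) in the Sox10 sort.

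Of 8 inhibitors and turnover genes, Numbl, a relative of the Notch antagonist Numb, was at 2.76 and 2.66 FPKM in the Sox10+EpCAM+ fMaSC and 8.13 and 12.0 FPKM in CD24+CD49f+ fMaSC, against 21.4 FPKM in EpCAM-negative stroma and 19.8 and 13.6 FPKM in CD24low stroma. It was lower in the Sox10 sort by -2.59 (SE 0.31, limma adjusted p = 0.00255), and Dtx4, a Deltex-family gene, by -1.02 (limma adjusted p = 0.0346). Of 5 further Hes- and Hey-type genes, Bhlhe41 was called higher in both sorts. The log2 fold was 1.86 (limma adjusted p = 0.0102) in the Sox10 sort and 1.60 (limma adjusted p = 0.0183) in the CD24 sort. Its stroma levels were 1.31 FPKM in EpCAM-negative stroma and 0.696 and 0.560 FPKM in CD24low stroma. Bhlhe41 thus met the expression filter only through its fMaSC libraries, so a difference was built into its passing it. Hey2 was lower in the Sox10 sort by -0.83 (limma adjusted p = 0.0411). Between the fMaSC fractions Hes5 was lower in Sox10+EpCAM+ fMaSC by -1.62 (limma adjusted p = 0.015), Numbl by -1.56 (0.0178) and Neurl3 by -1.25 (0.0136), while Dlk2 was higher by 0.76 (0.0398).

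**Figure D5:**
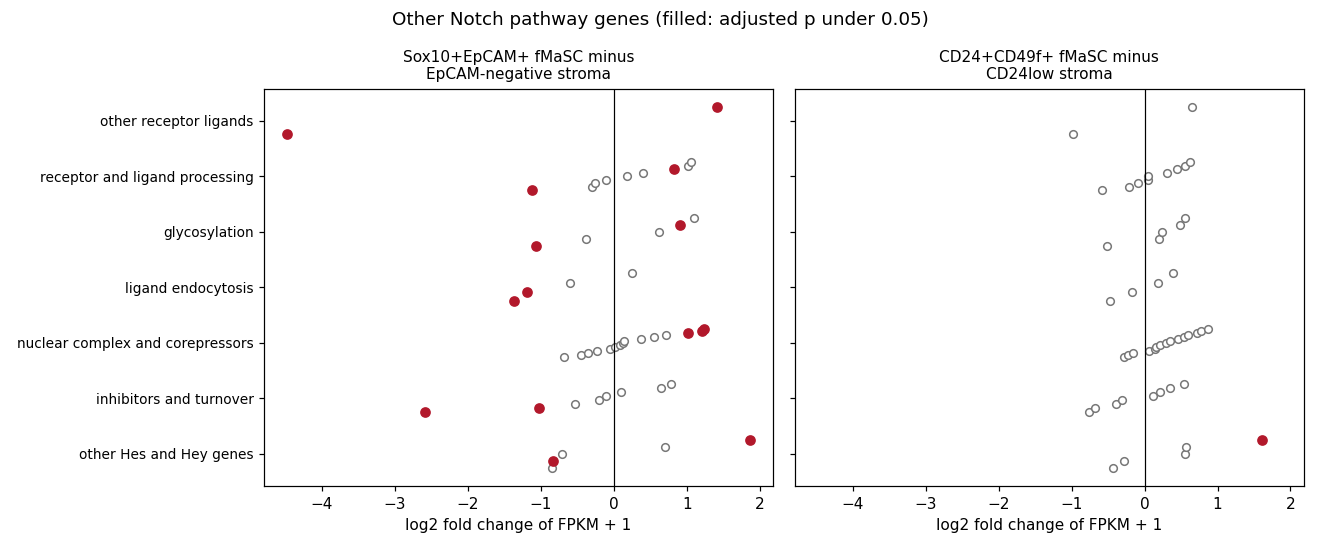
Log2 fold change (FPKM + 1) of the 48 tested pathway genes outside the 10 Notch genes, by list, for Sox10+EpCAM+ fMaSC minus EpCAM-negative stroma on the left and CD24+CD49f+ fMaSC minus CD24low stroma on the right, with filled points for limma adjusted p under 0.05. Filled points lie on both sides of 0 in the left panel (7 higher, 8 lower), and a single point is filled in the right panel.

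Several members share their locus with another annotated gene, and whether counting used strand is not given in the sources used here. Dll1 overlaps the lincRNA A930024N18Rik, Notch3 the antisense gene Gm17276 and Notch1 the transcripts 0610009E02Rik and Gm13568, all on the opposite strand, so reads from these could not be told apart from the member's own if strand was not used.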

How the data were processed

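RNA was sequenced from 7 libraries made with Illumina TruSeq RNA kits, as 100-base paired ends, per the labels' protocols. STAR (alignment to GRCm38/mm10) and Cufflinks are named, without versions, per the submitters' processing notes. Per the file headers the deposited table gives FPKM, and its 7 library columns were all used. A Sox10 overexpression experiment described in the labels is not analysed here. The table holds 38579 gene entries beside 8 added sequences, which were left out. Of the entries 36664 (95.0%) were matched by Ensembl ID to GENCODE vM21, among them all 10 members, whose symbols the file spells in mixed case.

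The expression filter kept the 14418 genes that reached 1 FPKM in at least 2 libraries, and log2(FPKM + 1) was fitted with limma 3.58.1 in R 4.3.3 as 4 group means with an empirical Bayes trend. The fit was tested on simulated data. All tests were two-sided, with p-values adjusted by Benjamini-Hochberg over the 14418 genes and called at 0.05. The EpCAM-negative library takes its variance from the other groups. No count test was run, since FPKM are not counts. Depth was estimated from low values on transcripts of 800 to 6000 bases, of which 76.1% to 82.9% lay within 0.15 of a whole number of fragments, so it is approximate. On a transcript of 2 kb, 1 fragment corresponded to 0.0146 to 0.0220 FPKM.

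The members, gene lists, tests and alternatives were chosen with earlier results of these data known, so they are not independent of them. Named genes were the 10 members, up to 3 called genes per pathway list and comparison with the largest folds, and the 3 genes most like each member that spans over 2 on the log2 scale (mean of 2 FPKM or more). Rbpj was named after its values were seen. One marker gene is not reported here and was left out of its list. Alternatives were a pseudocount of 0.1, no filter, a filter of 5 FPKM, rescaling each library to an equal FPKM total (TPM), scaling by a trimmed mean of M values (TMM) and quantile scaling, no variance trend, a contrast of group means for the pooled fit, and leaving out each library. Running them for the pathway genes was added after seeing the data. Python 3.11.15 drew the figures with matplotlib 3.10.9, and pandas 2.3.3 and numpy 2.4.6 handled tables.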

Additional observations from a re-analysis of the deposited data

Results flagged for a closer look

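Heyl differed between the sorts in its fMaSC-against-stroma fold, by a test of the difference itself. The log2 fold was -3.82 in the Sox10 sort and -0.71 in the CD24 sort, a difference of -3.12 (SE 0.44, limma adjusted p = 0.0358). Both Sox10+EpCAM+ fMaSC libraries, at 0.288 and 0.279 FPKM, lay below both CD24+CD49f+ fMaSC libraries, at 5.99 and 11.1 FPKM. The adjusted p ranged up to 0.207 over the alternatives. Fibroblast markers stood at 0.630% and 1.03% of the CD24low stroma mean in Sox10+EpCAM+ fMaSC and at 30.0% and 46.6% in CD24+CD49f+ fMaSC, and their part in the difference was not tested.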

How the results depend on the processing

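Of the 18 member calls over 6 comparisons, 9 held under every alternative run: Jag2 and Dll1 in both sorts and pooled, Hey1 pooled, and Heyl in the Sox10 sort and between the fMaSC fractions. The other 9 were lost under at least 1. These calls are not independent, since the pooled fit and the sorts use the same libraries. Dll1 and Jag2 also met the expression filter only through their fMaSC libraries. Rescaling each library to an equal FPKM total (TPM) moved the median of all genes by more than 0.1, to -0.63 in the Sox10 sort, -0.32 pooled, -0.12 in the CD24 sort, -0.23 between fMaSC fractions, 0.24 between stroma fractions and -0.51 for the difference. Relative to that median, under the same rescaling, the Sox10 sort gave Dll1 4.54, Jag2 3.70, Hey1 2.37, Notch1 1.02, Notch3 -1.94, Notch2 -2.13 and Heyl -4.39. The all-gene calls of the Sox10 sort were then 594 higher and 1619 lower, against 1803 and 1959 as reported, and those of the CD24 sort were 433 and 123, 1007 and 619 with TMM and 855 and 772 with quantile scaling, against 1121 and 424.

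The number of members called fell to 3 pooled under that rescaling. Between fMaSC fractions it fell to 1 with a pseudocount of 0.1, with no filter and with rescaling. For the difference it was 0 by limma with no filter, rescaling or quantile scaling, where 2, 1 and 3 members had an unadjusted p under 0.05. Leaving out each library gave 3 to 5 calls in the CD24 sort, 4 to 7 in the Sox10 sort, 3 to 7 pooled (3 without the EpCAM-negative library), 1 to 3 between fMaSC fractions, 0 between stroma fractions and 0 to 2 for the difference. The calls over all genes moved too, from 426 to 2353 in the CD24 sort, 1674 to 5758 in the Sox10 sort, 1563 to 6374 pooled, 269 to 2509 between fMaSC fractions, 0 to 11 between stroma fractions and 4 to 974 for the difference. Notch2 and Heyl passed the pooled test under TMM, quantile scaling and the group means contrast (0.0288 and 0.000824 in the last), and without CD24+CD49f+ fMaSC replicate 2 (0.0036 and 0.0162).

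Hes1 turned to -0.091 in the CD24 sort and -0.48 pooled under rescaling, and pooled to -0.13 with TMM, -0.25 with quantile scaling and -0.028 with the group means contrast. Between stroma fractions under rescaling Hes1 was 0.050 and Hey1 0.22, and Hey1 was 0.0042 with TMM. The Hey1 difference between sorts was -0.15 under rescaling. With each library left out, signs turned for uncalled values only. Jag1 ran from -0.51 to 0.24 and Hes1 from -0.10 to 0.50 in the CD24 sort, and Hes1 from -0.18 to 0.20 pooled. Between fMaSC fractions Notch1 ran from -0.0042 to 0.79 and Jag1 from -0.43 to 0.32. Between stroma fractions Notch2 ran from -0.16 to 0.28 and Hey1 from -0.078 to 0.046, and for the difference Notch1 ran from -0.42 to 0.38 and Jag1 from -0.55 to 0.20. The cause of these changes was not tested. The EpCAM-negative library could not be left out of the comparisons that need it. Without it the pooled fit reduces to the CD24 sort comparison, so its pooled values and counts are then no separate check. No paired analysis was possible because the labels number no replicates, so no libraries of different groups share a number. The lowest library value among the tested members, 0.157 FPKM for Jag2, lies above that of 1 fragment on a transcript of 2 kb, and low values such as this carry the largest counting error.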
